A study of Mus musculus with 6 samples.

Results

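Sorafenib (Sora) binds a set of kinases directly, and the RNA levels of 9 of these kinases were followed in Hepa1-6 tumors: the RAF kinases Araf and Braf, the VEGF receptors Flt1, Kdr, and Flt4, the PDGF receptors Pdgfra and Pdgfrb, and the receptors Kit and Flt3. The genes were chosen as direct targets of the drug and found by exact symbol, 9 of 26167 genes in the table. All 9 passed the filter on low counts. Hepa1-6 (spelled Hep1-6 in the sample labels) is a hepatoma line of C57L mouse origin. The line was grown as subcutaneous tumors in female C57BL/6J mice aged 6 to 8 weeks, so every tumor also held blood vessels, stroma, and immune cells of the host. The 3 Sora-treated tumors, numbered 2, 3, and 4 in the labels, came from mice given 10 mg/kg Sora ip on days 9, 11, 13, and 15. The 3 control tumors, numbered 1, 3, and 4, carry the treatment label control, and what these mice were injected with is not given in the sources used here. The labels do not say whether each tumor came from a different mouse, so the p-values measure the spread between these tumors and no more.

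Each library held 31073830 to 36205814 counted reads. The table of counts used here lacks Sora-treated tumor 4, and its counts were computed from the deposited FPKM (reads scaled by gene length and by the total of the library). They came out within 0.001 of a whole number in 100% of its values. With each of the other 5 tumors treated as unknown, the same calculation returned every gene of known length exactly. In these trials 460 to 556 genes per tumor, with 669 to 1023 reads, lacked a length. Values for this tumor rest on that step, and results without this tumor are given for part of the comparisons. The labelled tissue was checked with hepatoma markers: Alb ranged from 974 to 1680.2 FPKM, Hnf4a from 15.8 to 32.3 FPKM, and Afp from 323 to 483 FPKM. Of the 12 markers 10 passed the filter on low counts. Cps1, a urea cycle enzyme, was nearly absent (0 to 6 reads per tumor, with 0 in 2 tumors), Serpina1a, which has close relatives that can share its reads, had 1 to 9 reads, and Apoa2 was low (0.974 to 1.66 FPKM). Afp, Cps1, Serpina1a and Apoa2 are named after their values were seen.

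ARAF and BRAF relay the signal of RAS proteins to MEK and then to ERK, the last kinases of the MAPK cascade. The other members are receptors in the cell membrane. FLT1 (VEGFR1), KDR (VEGFR2), and FLT4 (VEGFR3) bind VEGF proteins, KDR as the main signaling receptor of blood vessels, FLT1 largely as a high-affinity decoy, and FLT4 in lymphatic vessels and sprouting capillaries. PDGFRB is found mainly on pericytes and PDGFRA on fibroblasts, whereas KIT marks mast cells and melanocytes and FLT3 drives the development of dendritic cells. Sora is an inhibitor of these kinases, yet the paper reports more phosphorylated MEK and ERK in CD4+ T cells treated with it. The RNA levels given here measure how much message the tumor contained and not kinase activity.

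The DNA just before the start site is shown for the 3 VEGF receptor genes, because they belong to 1 family and include Flt4, the member that differed most between the groups. The sequences are RefSeq windows of 250 bases on GRCm38.p6, read 5′ to 3′ on the strand of the gene and ending at the base before the annotated start. The deposited tables hold no coordinates, and no binding or chromatin data were used. Capitals mark 3 motifs searched on both strands: AGGAAG, a core bound by ETS factors, GGGCGG, the GC box, and TATAAA, the TATA box, with a motif on the opposite strand printed as its reverse complement.
Flt4 (chr11:49609429-49609678, + strand): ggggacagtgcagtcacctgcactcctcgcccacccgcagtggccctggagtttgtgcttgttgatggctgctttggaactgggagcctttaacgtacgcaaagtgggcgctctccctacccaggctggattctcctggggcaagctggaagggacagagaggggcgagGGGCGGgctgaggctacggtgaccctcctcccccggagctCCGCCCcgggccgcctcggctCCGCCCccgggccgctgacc
Kdr (chr5:75978456-75978705, - strand): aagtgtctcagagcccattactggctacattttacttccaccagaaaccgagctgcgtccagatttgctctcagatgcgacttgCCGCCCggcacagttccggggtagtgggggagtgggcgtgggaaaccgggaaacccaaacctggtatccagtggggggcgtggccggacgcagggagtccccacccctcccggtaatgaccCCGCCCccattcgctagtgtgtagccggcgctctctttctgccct
Flt1 (chr5:147726012-147726261, - strand): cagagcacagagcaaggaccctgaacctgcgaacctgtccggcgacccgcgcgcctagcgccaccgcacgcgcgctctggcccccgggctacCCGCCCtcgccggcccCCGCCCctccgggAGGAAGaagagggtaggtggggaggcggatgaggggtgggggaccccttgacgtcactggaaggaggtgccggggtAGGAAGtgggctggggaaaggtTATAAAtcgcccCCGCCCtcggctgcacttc
The Flt1 window held 2 ETS cores, 3 GC boxes, and 1 TATA box. The Kdr window held 2 GC boxes and the Flt4 window held 3, and neither held the other motifs. Among 32851 windows of the same length, 29.5% held the ETS core, 32.7% the GC box, and 12.4% the TATA box. The GC content was 70.4% for Flt1, 68.4% for Flt4, and 61.6% for Kdr, against a median of 52.4% over all windows. These matches describe the letters only.

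The 9 genes differed widely in level. By mean FPKM over the 6 tumors, which allows genes of different length to be compared, the order was Pdgfrb (21.4 ± 2.66, SD, n = 6), Flt4 (13.7 ± 2.19), Araf (10.2 ± 0.454), Flt1 (7.34 ± 0.899), Braf (5.47 ± 0.308), Pdgfra (5.31 ± 0.711), Kit (2.76 ± 0.460), Kdr (2.16 ± 0.520), and Flt3 (0.219 ± 0.0475). Braf and Pdgfra could not be ordered, since Braf was the higher of the pair in 3 of 6 tumors. Flt4 lay above Araf and Kit above Kdr in 6 of 6 tumors, although the ranges of each pair over all tumors overlapped. The ranges of the other neighbors in the order did not overlap. Flt3 was the scarcest, with 31 to 60 reads per tumor, so its values carry the largest counting error. In RefSeq's annotation of GRCm38.p6, Pdgfra, Kit, and Kdr are neighboring protein-coding genes on chromosome 5, which also holds Flt3 and Flt1. The levels of the 3 neighbors differed all the same, in the order Pdgfra, Kit, Kdr in 6 of 6 tumors.

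**Figure D1:**
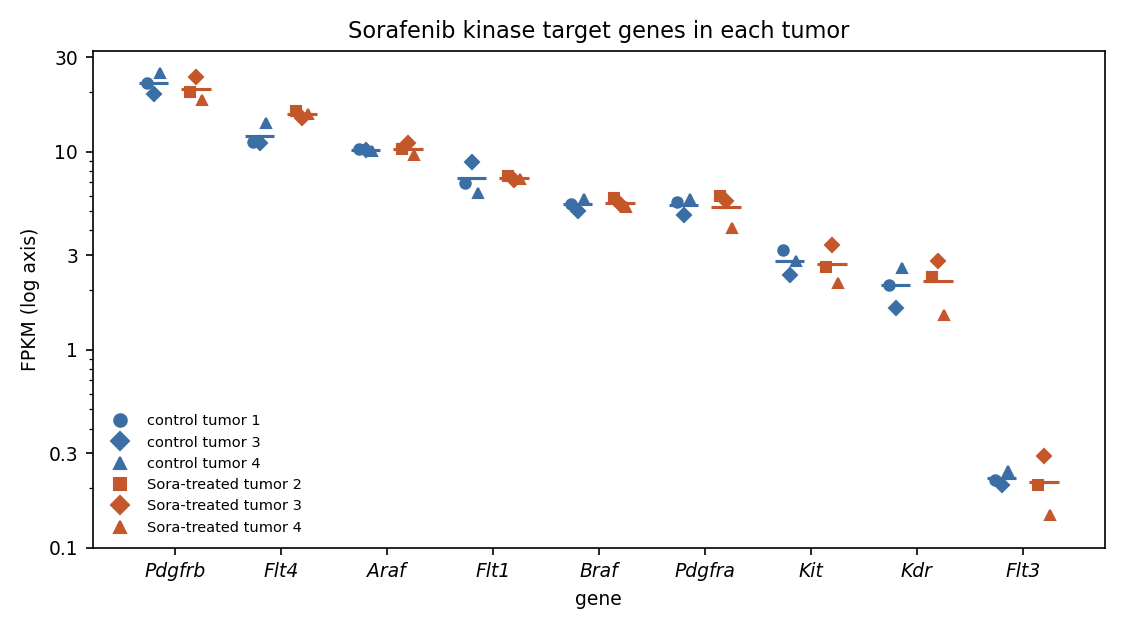
FPKM of the 9 kinase target genes on a log axis, ordered by mean, with 1 point per tumor (blue, control; orange, Sora-treated; shape, tumor number) and a line at the mean of each group. The points of the 2 groups overlap for every gene but Flt4, whose control tumors lie between 11.003 and 13.9 FPKM and Sora-treated tumors between 14.8 and 16.1.

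The comparison of Sora-treated with control tumors asked whether the message of the drug's own targets changed under treatment. None of the 9 genes passed an adjusted p under 0.05 in edgeR's quasi-likelihood test, where 3.29% of the 16513 genes tested passed (1.94% higher and 1.34% lower in Sora-treated tumors). At an unadjusted p under 0.05 the count was 1 of 9, against 17.2% of all genes tested, and the gene was Flt4. Flt4 was also the 1 member whose groups did not overlap in CPM (reads of a gene relative to the TMM-scaled total of its library), which held for 22.2% of all genes tested. DESeq2 called 1 of 9, again Flt4, against 7.71% of the genes to which it gave an adjusted p. The log2 fold change was positive for 5 members and negative for 4, and without Flt4 all log2 fold changes lay between -0.089 and 0.070. The median over all genes tested was -0.00037.

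**Figure D2:**
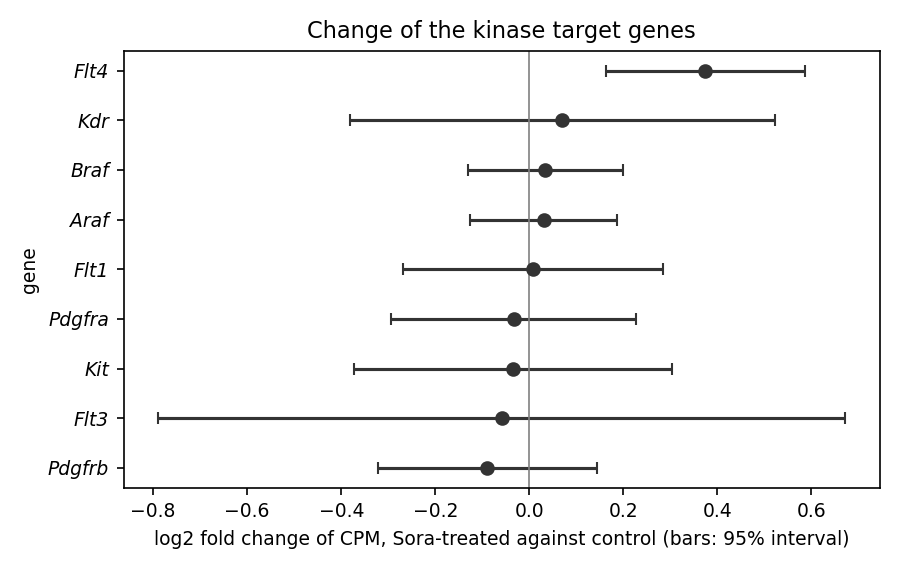
Log2 fold change of each kinase target gene, Sora-treated against control, from edgeR with 95% intervals (n = 3 tumors per group). The interval of Flt4 runs from 0.16 to 0.59 and those of the other 8 genes include 0.

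Of the RAF kinases, Araf measured 67.4, 69.9, and 67.1 CPM in the control tumors (1, 3, and 4), against 68.6, 73.4, and 66.7 CPM in those treated with Sora (2, 3, and 4). The values of both groups interleaved, with the highest and the lowest both in Sora-treated tumors. The log2 fold change was 0.031 (95% interval -0.13 to 0.19, adjusted p = 0.87, edgeR), an interval of -8.34% to 13.9% in percent. Braf, the RAF kinase with the strongest basal activity, measured 53.7, 51.8, and 57.98 CPM in the control tumors (1, 3, and 4), against 58.3, 54.4, and 54.7 CPM in those treated with Sora (2, 3, and 4). Its log2 fold change was 0.034 (95% interval -0.13 to 0.20, adjusted p = 0.86, edgeR), and control tumors 3 and 4 were its lowest and second highest. Araf and Braf had the narrowest intervals of the 9 genes. The FPKM of Araf was 1.74 to 2.02 times that of Braf, with a range of 1.74 to 2.02 in control and 1.76 to 2.02 in Sora-treated tumors.

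Among the VEGF receptors, Kdr measured 16.2, 13.05, and 20.2 CPM in the control tumors (1, 3, and 4), against 18.1, 21.8, and 12.1 CPM in those treated with Sora (2, 3, and 4). The values of the groups overlapped throughout, and the lowest was that of Sora-treated tumor 4, whereas Sora-treated tumor 3 was the highest. The log2 fold change was 0.070 (95% interval -0.38 to 0.52, adjusted p = 0.90, edgeR), so changes from -23.3% to 43.7% lie within the interval. In a bulk tumor, fewer endothelial cells and less RNA per endothelial cell cannot be told apart, and this holds for every receptor below. Flt1, which binds VEGF-A and PlGF, measured 94.5, 127, and 85.04 CPM in the control tumors (1, 3, and 4), against 104, 99.1, and 104 CPM in those treated with Sora (2, 3, and 4). The control tumors included both the highest and the lowest value, and the Sora-treated tumors all lay between them. Its log2 fold change was 0.0077 (95% interval -0.27 to 0.28, adjusted p = 0.98, edgeR). The SD of the 3 tumors was 21.9 CPM in the control group and 3.11 CPM in the Sora-treated group. The FPKM ratio of Flt1 to Kdr was 3.27, 5.47, and 2.37 in the control tumors (1, 3, and 4), against 3.25, 2.56, and 4.84 in those treated with Sora (2, 3, and 4), so the balance of the receptors varied by tumor in both groups.

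Flt4, the receptor for VEGF-C and VEGF-D, was the member that differed most. It measured 63.7, 65.8, and 80.5 CPM in the control tumors (1, 3, and 4), against 93.4, 85.3, and 93.5 CPM in those treated with Sora (2, 3, and 4). Each Sora-treated tumor lay above each control tumor, although control tumor 4 and Sora-treated tumor 3 were close. The mean was 69.997 ± 9.17 CPM in control and 90.7 ± 4.69 CPM in Sora-treated tumors (SD, n = 3 each), and the log2 fold change was 0.37, with a standard error of 0.0958 (95% interval 0.16 to 0.59, or 11.9% to 50.04%). In edgeR's test the unadjusted p was 0.0025 and the adjusted p was 0.060, which missed the threshold. With DESeq2 the adjusted p was 0.0079, and in edgeR with no filter on low counts it was 0.015. Leaving out control tumor 4 or Sora-treated tumor 3 also brought it under 0.05 (adjusted p = 0.037 and 0.040, edgeR), and without Sora-treated tumor 4 it was 0.23, with a log2 fold change of 0.35. No other fit brought it under 0.05. With no filter and without Sora-treated tumor 3, edgeR called 1147 and 1145 genes in all, against 543 in the main fit. The log2 fold change was positive in every fit, from 0.30 to 0.49.

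Flt4 also had the highest FPKM of the VEGF receptors in each of the 6 tumors. Its FPKM reached 5.27, 6.77, and 5.35 times that of Kdr in the control tumors (1, 3, and 4), against 6.93, 5.26, and 10.3 times in those treated with Sora (2, 3, and 4), so the ratio overlapped between the groups and was highest in Sora-treated tumor 4. Set beside the 6 markers of lymphatic endothelium, Flt4 at 11.003 to 16.1 FPKM overlapped the range of Pdpn, or podoplanin (12.2 to 18.9 FPKM), which lay above it in control tumors 1 and 3 and Sora-treated tumor 2, and that of Ccl21a (5.63 to 14.1 FPKM), which lay below it within each tumor. The other 4 lay below its range: Prox1, the transcription factor that sets lymphatic identity (2.46 to 3.55 FPKM), Lyve1, a hyaluronan receptor (1.83 to 4.70 FPKM), Mmrn1 (0.0970 to 0.772 FPKM), and Reln (0.0512 to 0.198 FPKM). Of the general endothelial markers, Pecam1 measured 23.003 to 33.97 FPKM and Cdh5, the VE-cadherin of vessel walls, 9.87 to 18.7 FPKM. The endothelial and lymphatic markers named here and further on were picked after their values were seen. Which cells of the tumor held the Flt4 message was not tested.

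The ligands of the VEGF receptors gave 1 call among 7 tested ligand and co-receptor genes. Vegfa, the main angiogenic ligand of KDR and FLT1, measured 202, 271, and 255 CPM in the control tumors (1, 3, and 4), against 366, 394, and 400.0 CPM in those treated with Sora (2, 3, and 4). The groups were far apart, with the lowest Sora-treated tumor above the highest control tumor. Vegfa was up-regulated, its log2 fold change being 0.67 (95% interval 0.44 to 0.90, adjusted p = 0.013, edgeR). Without Sora-treated tumor 4 the log2 fold change was 0.65 and the adjusted p 0.082 in the same test. Vegfc, a ligand of FLT4, measured 12.6, 12.2, and 13.3 CPM in the control tumors (1, 3, and 4), against 15.8, 15.5, and 17.1 CPM in those treated with Sora (2, 3, and 4). Its groups did not overlap either, but the adjusted p was 0.10 (log2 fold change 0.34, 95% interval 0.12 to 0.57, edgeR). Vegfd, the other FLT4 ligand, had a log2 fold change of 0.13 and overlapping groups (adjusted p = 0.78, edgeR). Pgf and Vegfb, which bind FLT1, had log2 fold changes of 0.30 and 0.024 (adjusted p = 0.30 and 0.93, edgeR). The co-receptors Nrp1 and Nrp2 had log2 fold changes of -0.34 and -0.18 (adjusted p = 0.18 and 0.32, edgeR), with the lower values in Sora-treated tumors 2 and 4. Nrp1 was called lower by edgeR when Sora-treated tumor 3 was left out (log2 fold change -0.50, adjusted p = 0.014).

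**Figure D3:**
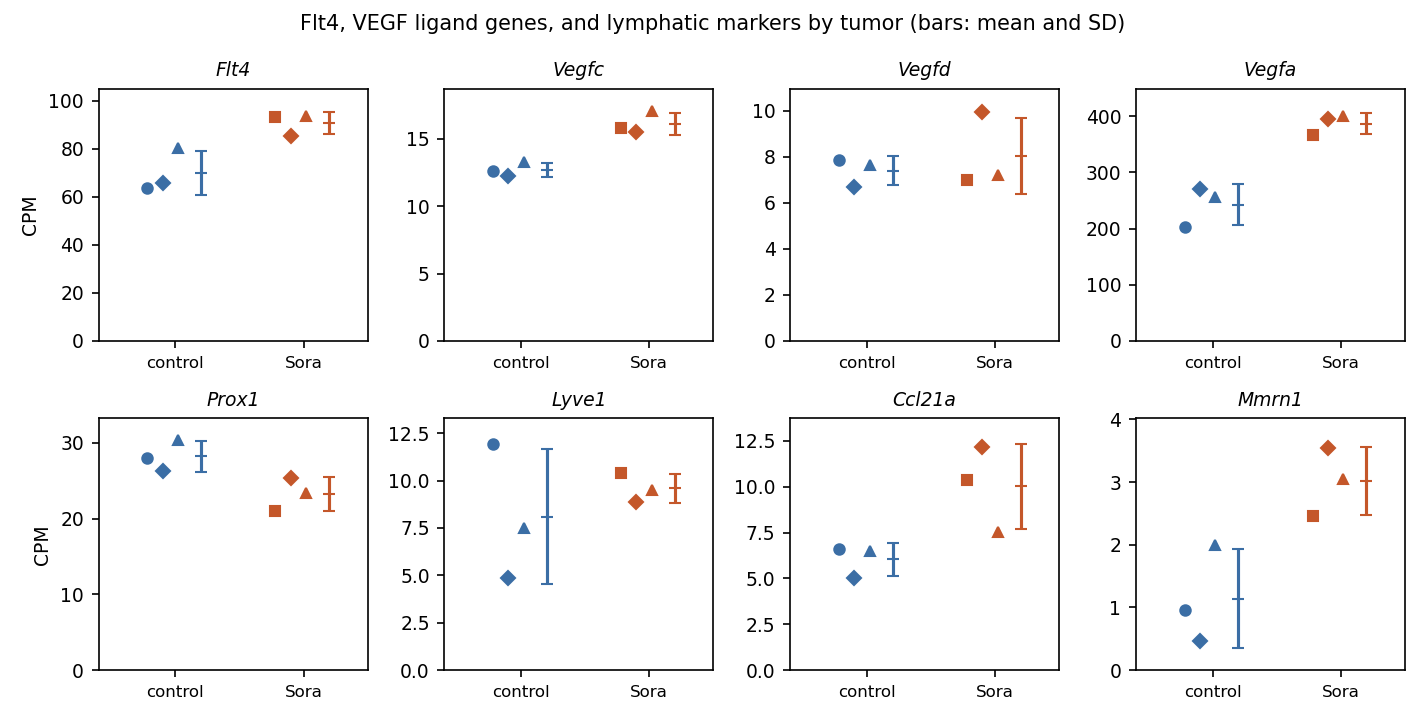
CPM of Flt4, of the VEGF ligand genes Vegfc, Vegfd, and Vegfa, and of 4 lymphatic markers, with 1 point per tumor (circle, tumor 1; square, 2; diamond, 3; triangle, 4) and the mean and SD of 3 tumors per group beside them. The groups do not overlap for Flt4, Vegfc, Vegfa, Ccl21a, and Mmrn1, nor for Prox1, which was lower in the Sora-treated tumors, and they overlap for Vegfd and Lyve1.

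Of the PDGF receptors, Pdgfrb was the most abundant of the 9 genes. It measured 132, 122, and 151 CPM in the control tumors (1, 3, and 4), against 121, 145, and 115 CPM in those treated with Sora (2, 3, and 4). Control tumor 4 was the highest and Sora-treated tumor 4 the lowest, with the other 4 tumors mixed. The log2 fold change was -0.089 (95% interval -0.32 to 0.14, adjusted p = 0.73, edgeR), the lowest of the members. Pdgfra measured 49.8, 45.3, and 52.96 CPM in the control tumors (1, 3, and 4), against 54.6, 51.1, and 38.9 CPM in those treated with Sora (2, 3, and 4). Sora-treated tumors 2 and 4 were its highest and its lowest, and the log2 fold change was -0.033 (95% interval -0.29 to 0.23, adjusted p = 0.92, edgeR). Without Sora-treated tumor 4 the sign turned, to 0.10. None of the 4 PDGF ligand genes was called by edgeR or DESeq2 over all 6 tumors with the filter on low counts, and Pdgfc alone had an unadjusted p under 0.05 in edgeR. Pdgfc was called lower by edgeR with no filter (adjusted p = 0.027) and without Sora-treated tumor 3 (adjusted p = 0.0099). Pdgfc and Pdgfd had log2 fold changes of -0.49 and -0.49 (adjusted p = 0.19 and 0.35, edgeR), and only Pdgfd, at 1.78 to 3.52 CPM, had groups that did not overlap. Pdgfa and Pdgfb had log2 fold changes of -0.098 and 0.086 (adjusted p = 0.76 and 0.62, edgeR).

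Kit measured 16.1, 12.7, and 14.5 CPM in the control tumors (1, 3, and 4), against 13.4, 17.2, and 11.6 CPM in those treated with Sora (2, 3, and 4). Sora-treated tumor 3 was the highest and Sora-treated tumor 4 the lowest, around the control values. The log2 fold change was -0.035 (95% interval -0.37 to 0.30, adjusted p = 0.94, edgeR), and it turned to 0.088 without Sora-treated tumor 4. Flt3 measured 1.34, 1.32, and 1.51 CPM in the control tumors (1, 3, and 4), against 1.28, 1.79, and 0.936 CPM in those treated with Sora (2, 3, and 4). The 3 control tumors lay within 1.32 to 1.51 CPM, with Sora-treated tumor 3 above and Sora-treated tumors 2 and 4 below that range. Its log2 fold change of -0.059 had the widest interval of the 9 genes, -0.79 to 0.67 (adjusted p = 0.96, edgeR), so changes from -42.2% to 59.4% lie within it at this depth. The ligand genes Kitl and Flt3l had log2 fold changes of 0.10 and -0.080 (adjusted p = 0.62 and 0.86, edgeR), and their groups overlapped.

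The tumors differed in how the members were spread, also within a group. Sora-treated tumor 4, whose counts were computed from FPKM, had the lowest CPM for 6 of 9 members (Araf, Kdr, Pdgfra, Pdgfrb, Kit, and Flt3) and the highest for Flt4. Sora-treated tumor 3 had the highest for 4 (Araf, Kdr, Kit, and Flt3). Sora-treated tumor 2 had the highest for Braf and Pdgfra. For Araf, Kdr, Pdgfra, Kit, and Flt3, the highest and the lowest tumor of all 6 thus belonged to the Sora-treated group. By Pearson correlation of log2(CPM + 1) over the 6 tumors, among 11452 genes (11453 for Flt3) that averaged 5 CPM or more, the genes closest to Flt4 were Fanci, Hs3st1, and Phc1 (r from 0.994 to 0.996). Those closest to Kdr were Myl9, Ogt, and Zmym4 (r from 0.986 to 0.989), and those closest to Flt1 were Ndufb2, Vim, and Ufc1 (r from 0.978 to 0.983). For Pdgfrb they were Dpy19l4, Stim1, and Stab1 (r from 0.981 to 0.992), for Pdgfra Jcad, Gmip, and Cbx6 (r from 0.972 to 0.976), for Kit Kmt5c, Zfp810, and P3h3 (r from 0.976 to 0.984), and for Flt3 Tlr2, Sgce, and Ranbp10 (r from 0.985 to 0.994). For the RAF kinases they were Tmem82, Tm7sf2, and Retnlg (r from 0.978 to 0.990) with Araf and Rapgef3 and Srrt (r from 0.983 to 0.993) with Braf. With 6 tumors that share their group and their libraries, these are the top of a long list and are given as a description.

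The receptors were next set beside markers of the cells that mainly express them. A marker score is the mean log2(CPM + 1) over the markers of a cell type, and the level of a receptor relative to it is log2(CPM + 1) of the receptor minus the score. The scores are given as a description, and exact permutation tests were run only on the relative levels. The endothelial score, over 17 markers, was 4.02 to 4.13 in control and 3.70 to 4.17 in Sora-treated tumors, with a summed level of 417 to 463 CPM in control and 337 to 455 CPM in Sora-treated tumors. Of these 17 markers, 0 were called by edgeR or by DESeq2 (2 lower at an unadjusted p under 0.05, edgeR), and the median log2 fold change was -0.19. Without Sora-treated tumor 4, 0 had an unadjusted p under 0.05 in edgeR, and the median was -0.074. Relative to the endothelial score, Flt4 measured 1.98, 2.04, and 2.22 in the control tumors (1, 3, and 4), against 2.73, 2.26, and 2.86 in those treated with Sora (2, 3, and 4). The groups did not overlap, and the difference of 0.53 had p = 0.1, the smallest an exact two-sided permutation test can give for 3 tumors against 3 (adjusted p = 0.4 over 8 such differences). Relative to the same score, Kdr differed by 0.21 and Flt1 by 0.19, with overlapping groups (p = 0.4 and 0.6 in the same exact test). The score was lowest in Sora-treated tumors 2 and 4. Flt4 stood highest relative to it in these tumors, and a lower score raises a relative level by definition. Whether the number of vessel cells had a part in this was not tested.

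The lymphatic endothelial score, over 6 markers, was 2.65 to 3.10 in control and 3.201 to 3.39 in Sora-treated tumors, without overlap, and the summed level was 62.7 to 72.9 CPM in control and 73.1 to 80.1 CPM in Sora-treated tumors. Of the 6 markers, 0 were called by edgeR (2 higher and 1 lower at an unadjusted p under 0.05) and 2 by DESeq2, 5 had positive log2 fold changes, and the median was 0.41. Mmrn1, an extracellular matrix protein of lymphatic endothelium, and Ccl21a, the chemokine that guides dendritic cells into lymph vessels, had log2 fold changes of 1.39 and 0.73 (adjusted p = 0.12 and 0.071, edgeR). With 1 tumor left out, these ran from 1.02 to 2.08 for Mmrn1 and from 0.57 to 0.90 for Ccl21a. Both genes passed an adjusted p under 0.05 in at least 1 alternative fit. Prox1 went the other way, with 28.2 ± 2.05 CPM in control and 23.3 ± 2.21 CPM in Sora-treated tumors (SD; log2 fold change -0.28, adjusted p = 0.17, edgeR), and Lyve1 had overlapping groups. Relative to the lymphatic score, Flt4 measured 2.99, 3.42, and 3.25 in the control tumors (1, 3, and 4), against 3.28, 3.05, and 3.36 in those treated with Sora (2, 3, and 4), a difference of 0.010 (p = 0.9, exact two-sided permutation test). Within the Sora-treated group the score was highest in tumor 3, which had the lowest Flt4 of that group. Pdpn is also on the list of fibroblast markers, and which cells held the message of the 6 lymphatic markers was not tested. The part of the lymphatic cells in the Flt4 difference was not tested.

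For the stromal receptors, the pericyte and smooth muscle score over 11 markers was 4.67 to 4.98 in control and 4.74 to 5.12 in Sora-treated tumors, with 0 markers called by edgeR (2 at an unadjusted p under 0.05, and 1 by DESeq2) and a summed level of 548 to 744 CPM in control and 544 to 742 CPM in Sora-treated tumors. Relative to it, Pdgfrb differed by -0.16, with overlapping groups (p = 0.2, exact two-sided permutation test). The fibroblast score over 12 markers was 7.62 to 7.68 in control and 7.18 to 7.49 in Sora-treated tumors, without overlap, and the summed level was 8578 to 8771 CPM in control and 5926 to 7442 CPM in Sora-treated tumors. Of the 12 fibroblast markers, 2 were down-regulated, Postn and Mfap5 (-0.68 and -0.48 on the log2 scale, adjusted p = 0.017 and 0.023, edgeR), both proteins of the extracellular matrix. DESeq2 called 6 lower, and without Sora-treated tumor 4 the counts were 0 by edgeR (6 at an unadjusted p under 0.05) and 5 by DESeq2. Pdgfra measured -1.96, -2.14, and -1.87 in the control tumors (1, 3, and 4), against -1.63, -1.79, and -1.86 in those treated with Sora (2, 3, and 4) relative to the score. Its difference of 0.23 had p = 0.1 (adjusted p = 0.4, exact two-sided permutation test), and the groups did not overlap. The part of the fibroblasts in it was not tested.

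The mast cell score over 8 markers was 3.47 to 3.93 in control and 3.60 to 4.03 in Sora-treated tumors, with a summed level of 137 to 193 CPM in control and 144 to 205 CPM in Sora-treated tumors, and 1 marker, the histidine decarboxylase gene Hdc, was up-regulated (log2 fold change 1.01, adjusted p = 0.046, edgeR). Hdc measured 18.4 CPM in Sora-treated tumor 2, against 9.20 and 9.96 CPM in Sora-treated tumors 3 and 4. The 7 markers not called had log2 fold changes from -0.15 to 0.22. Without Sora-treated tumor 4 edgeR called 0 of the 8 (3 at an unadjusted p under 0.05) and DESeq2 1. Kit differed by -0.21 relative to the mast cell score, with overlapping groups (p = 0.4, exact two-sided permutation test). Of the melanocyte markers, which mark the other Kit-bearing cells of skin, 3 of 6 passed the filter on low counts and 0 were called by edgeR (1 lower at an unadjusted p under 0.05 and by DESeq2). The dendritic cell score over 11 markers was 3.70 to 3.99 in control and 3.74 to 3.85 in Sora-treated tumors, with a summed level of 477 to 582 CPM in control and 458 to 514 CPM in Sora-treated tumors and 0 markers called by edgeR (1 higher and 2 lower at an unadjusted p under 0.05, and 1 lower by DESeq2). Relative to it, Flt3 differed by 0.0011 (p = 1, exact two-sided permutation test).

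**Figure D4:**
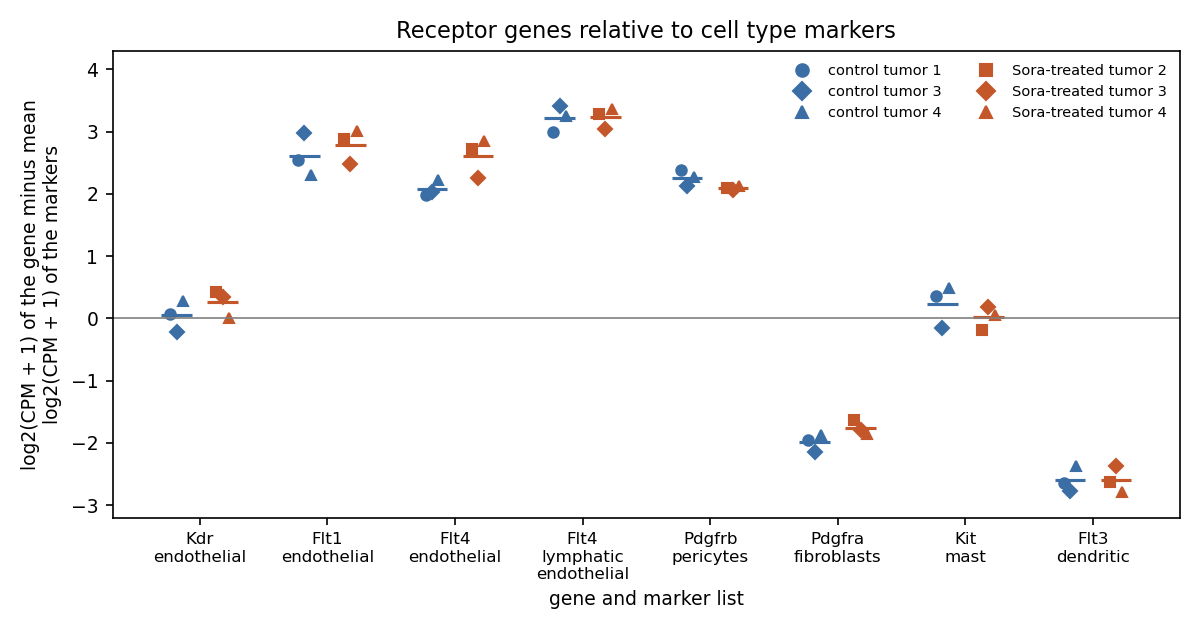
Level of each receptor relative to a cell type marker score, as the difference of log2(CPM + 1), with 1 point per tumor (blue, control; orange, Sora-treated; shape, tumor number) and a line at the mean of each group. Flt4 against endothelial markers (means 2.08 and 2.62) and Pdgfra against fibroblast markers (means -1.99 and -1.76) are the 2 pairs in which the groups do not overlap.

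Araf and Braf act within the MAPK cascade, and 30 genes of their partners and of the cascade were tested. Of these, 2 were up-regulated and 0 down-regulated at an adjusted p under 0.05 in edgeR, with a median log2 fold change of 0.032 (-0.00037 over all genes tested), and DESeq2 called 3 higher. Over all genes, edgeR called 3.29% in either direction, and DESeq2 called 7.71% of those to which it gave an adjusted p. Ksr2, a scaffold that holds RAF and MEK together, rose by 0.79 on the log2 scale, from 11.2 ± 1.43 CPM in control to 19.3 ± 4.22 CPM in treated tumors (SD, n = 3 each; adjusted p = 0.031, edgeR). Shoc2, part of the phosphatase complex that activates RAF kinases, rose by 0.38 on that scale, from 135 ± 12.7 to 175 ± 10.1 CPM (SD; adjusted p = 0.041, edgeR). The lowest log2 fold changes were those of Rap1a (-0.12), a RAS-like GTPase, and Nf1 (-0.094), which switches RAS off, with adjusted p of 0.41 and 0.68 in edgeR. The gene that DESeq2 called higher beside Ksr2 and Shoc2 was Map2k1, which encodes MEK1 (log2 fold change 0.34, adjusted p = 0.011 in DESeq2 and 0.071 in edgeR, or 0.024 in edgeR with no filter and 0.021 with Sora-treated tumor 3 left out), and its groups did not overlap. Map2k2, which encodes MEK2, and the ERK gene Mapk3 had log2 fold changes of 0.18 and -0.021 (adjusted p = 0.32 and 0.93, edgeR). These 3 genes are named after their values were seen. Without Sora-treated tumor 4, 0 of the 30 were called by edgeR, 4 had an unadjusted p under 0.05, and DESeq2 called 2 (Ksr2 and Shoc2 at adjusted p = 0.16 and 0.19, edgeR). The median log2 fold change of the 30 genes was then 0.0056.

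Downstream of the RAF kinases, 21 genes known to be turned on by ERK signaling were tested. Of these, 7 were up-regulated, 0 were down-regulated, and 14 did not pass in edgeR. The list was written with earlier results of these data known, so its counts are no independent evidence of a direction. The groups did not overlap for 12 genes, against 22.2% of all genes tested, and 2 of the 12 (Spry1 and Etv5) were lower in Sora-treated tumors. Over all genes tested, 1.94% were up-regulated. The median log2 fold change of the list was 0.34, with 17 genes positive and 4 negative. The 7 were Spry4 (0.86) and Spred3 (0.64), inhibitors of receptor and RAS signaling, the ERK and MAPK phosphatase genes Dusp5 (0.79) and Dusp4 (0.53), the transcription factor gene Egr1 (0.58), the early response gene Ier3 (0.42), and the receptor kinase gene Epha2 (0.53), each with its log2 fold change and with adjusted p from 0.015 to 0.043 in edgeR. Spry4 measured 28.7, 28.1, and 33.7 CPM in the control tumors (1, 3, and 4), against 61.1, 41.8, and 61.6 CPM in those treated with Sora (2, 3, and 4), and Sora-treated tumor 3 lay nearest to the control tumors. The lowest log2 fold changes were those of Spry1 (-0.51) and Etv5 (-0.26), with adjusted p of 0.12 and 0.077 in edgeR, and Spry1 was called lower with no filter (adjusted p = 0.012) and in the absence of Sora-treated tumor 3 (0.0021). DESeq2 called 10 of the 21 higher and 2 lower. Without Sora-treated tumor 4, edgeR called 0 (12 at an unadjusted p under 0.05), DESeq2 called 6, and the median was 0.21. Over all 6 lists of ligands, cascade, output, and other kinase genes, edgeR called 10 genes, and leaving out control tumors 1, 3, and 4 in turn gave 1, 7, and 2. Leaving out Sora-treated tumors 2, 3, and 4 in turn gave 2, 18, and 0.

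**Figure D5:**
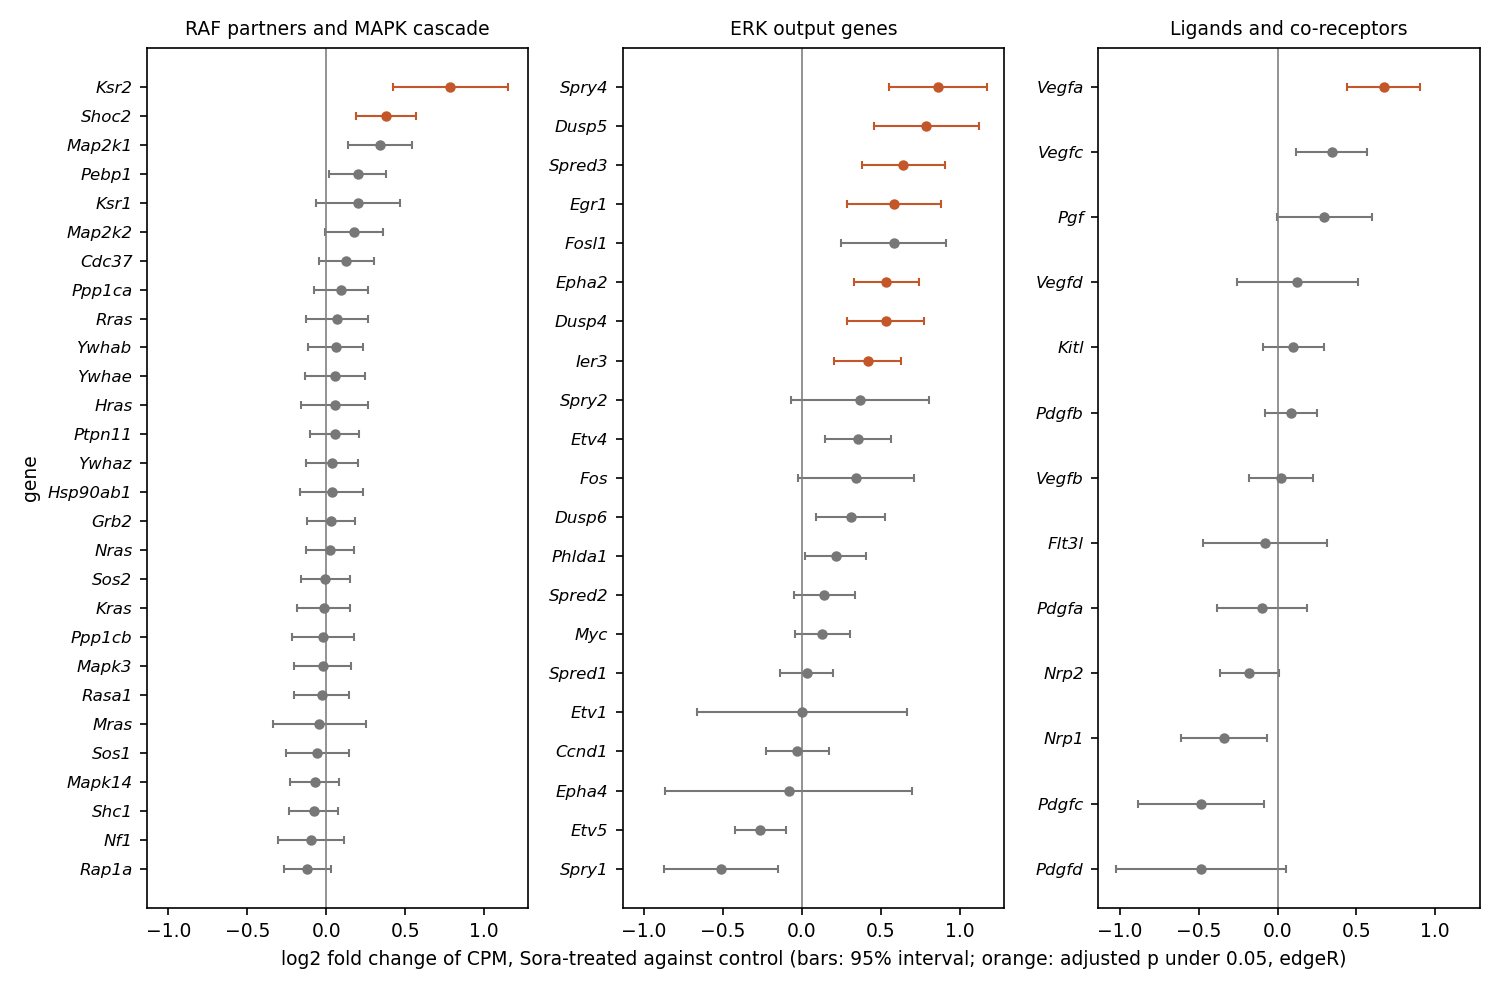
Log2 fold changes (Sora-treated against control, edgeR, 95% intervals, n = 3 tumors per group) of RAF partners and cascade genes (28 of the 30 drawn), ERK output genes, and ligands with co-receptors, each panel sorted by value, with genes at an adjusted p under 0.05 in orange. The orange genes, 2, 7, and 1 in the panels, all lie above 0.

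Sora also binds other kinases, of which 10 were tested, and edgeR called 0 of them, with a median log2 fold change of 0.028 (1, Csf1r, at an unadjusted p under 0.05, and 1 lower by DESeq2). Without Sora-treated tumor 4, edgeR and DESeq2 each called 0 of the 10, and the median was 0.048. The lowest was Csf1r, the receptor that maintains macrophages, which measured 341, 341, and 304 CPM in the control tumors (1, 3, and 4), against 247, 289, and 223 CPM in those treated with Sora (2, 3, and 4). Its groups did not overlap, and the log2 fold change was -0.38 (adjusted p = 0.067, edgeR). With no filter on low counts the adjusted p was 0.011, and with Sora-treated tumor 3 left out it was 0.014 (edgeR). The macrophage score was 7.56 to 7.70 in control and 7.27 to 7.49 in Sora-treated tumors, and 10 of 10 macrophage markers, Csf1r among them, had negative log2 fold changes, with 1 called by edgeR and 5 by DESeq2. The one called by edgeR was Mertk, an engulfment receptor (-0.45, adjusted p = 0.031), and without Sora-treated tumor 4 edgeR called 0 (5 at an unadjusted p under 0.05) and DESeq2 1. The part of macrophage number in the Csf1r values was not tested. Fgfr1 was next (-0.21, adjusted p = 0.34, edgeR). The highest were Ret (0.43), at 0.921 to 1.66 CPM, and Cdk8 (0.12), with adjusted p of 0.52 and 0.54 in edgeR.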

How the data were processed

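RNA-seq libraries, 1 per tumor, came from 3 control and 3 Sora-treated Hepa1-6 tumors. The authors deposited raw counts of reads per gene for 5 tumors in the table used here and FPKM for all 6. The submitters' processing notes name fastp, HISAT2, HTSeq, R 3.2.0, DESeq2, and GRCm39, whereas the methods of the paper name Bowtie2, GRCm38, and an expectation maximization algorithm for the FPKM. The annotation and the use of strand are not given in the sources used here. Batches are not given either.

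In the values, each FPKM equals the count divided by 1 length per gene and the total count, which allowed the counts of Sora-treated tumor 4 to be computed (20951 genes, with 342 genes and 512 reads lacking a length). The filter kept 16513 genes that reached 10 counts in 3 or more tumors, and these were tested with edgeR 4.0.16 (TMM, glmQLFit, glmQLFTest) in R 4.3.3, with Benjamini-Hochberg adjustment over all of them, a threshold of 0.05, and standard errors from the F statistic. The biological coefficient of variation was 0.132. DESeq2 1.42.0 and, on FPKM, limma 3.58.1 were alternatives, beside other scalings and filters, a replicate block, and leaving out each tumor. The scripts were tested on simulated data. Receptor levels minus the score of a marker list were compared between the groups with exact permutation tests, 8 in all, and the scores themselves were not tested.

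Named were all members, all ligands and co-receptors, pathway and marker genes with an adjusted p under 0.05, the 2 highest and 2 lowest log2 fold changes of each other pathway list among genes of at least 1 CPM, and the 3 genes most correlated with each member. The members and all lists were chosen with earlier results of these data known. DESeq2 without Sora-treated tumor 4 was added after seeing the data. Results of 3 further genes are not reported here.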

Additional observations from a re-analysis of the deposited data

How the results depend on the processing

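Of the 9 kinase genes, edgeR called 0, and 1 (Flt4) was called with DESeq2 and with no filter on low counts. With 1 tumor left out the count was 0 to 1. Over all genes the count of 543 became 1194 with DESeq2, 1147 with no filter, 125 with a block for the replicate number, 286 with log2(FPKM + 1), 252 with log2(FPKM + 0.1), and 5 to 1145 with 1 tumor left out (174, 316, and 176 without control tumors 1, 3, and 4, and 117, 1145, and 5 without Sora-treated tumors 2, 3, and 4). The pathway lists' count of 10 became 17, 16, 1, 4, and 4 under the same settings and 0 to 18 with 1 tumor left out. Vegfa, the ligand that passed, had adjusted p from 2.9e-08 to 0.082 over its settings. Numbers 3 and 4 occur in both groups. Deviations from the group means correlated at r = -0.017 and -0.081 for same-numbered tumors over 14113 genes. For the other pairs of a control and a Sora-treated tumor, r was -0.20 to 0.29. With 2 same-numbered pairs, these values cannot show whether a shared number stands for a shared batch. With the block, Flt4 had a log2 fold change of 0.30 (adjusted p = 0.43, edgeR), and Braf (-0.0066), Flt1 (-0.031), and Kit (0.062) changed sign. With 1 tumor left out at a time, log2 fold changes near 0 took either sign: -0.011 to 0.061 for Araf, -0.00068 to 0.081 for Braf, -0.13 to 0.27 for Kdr, -0.11 to 0.19 for Flt1, -0.13 to 0.10 for Pdgfra, -0.20 to 0.0021 for Pdgfrb, -0.21 to 0.088 for Kit, and -0.33 to 0.14 for Flt3. Among the other genes the ranges were -0.022 to 0.088 for Vegfb, -0.059 to 0.22 for Vegfd, -0.29 to 0.023 for Pdgfa, -0.19 to 0.041 for Flt3l, -0.18 to 0.014 for Nf1, -0.084 to 0.022 for Mapk3, and -0.016 to 0.63 for Lyve1. DESeq2 on the deposited counts alone, without Sora-treated tumor 4, gave -0.0072 for Flt1, 0.097 for Pdgfra, 0.085 for Kit, 0.14 for Flt3, and 0.038 for Flt3l. None of these genes had an adjusted p under 0.05 in any setting. With the median in place of the mean over markers, Pdgfrb differed by -0.39 relative to pericytes and Kit by -0.50 relative to mast cells. The cause of these changes was not tested. Reads limit Flt3 most, at 31 to 60 per tumor.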

Other observations

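Markers of the tumor cells and of tissue around the tumors were measured beside the kinase genes. Of 10 hepatoma markers tested, 2 were up-regulated, Hnf4a and Apoa1 (0.80 and 1.03 on the log2 scale, adjusted p = 0.013 and 0.047, edgeR), and 2 were down-regulated, Alb and Ttr (-0.55 and -2.15, adjusted p = 0.041 and 0.0055, edgeR), with a median of 0.041. Without Sora-treated tumor 4, edgeR called 1 of the 10 and DESeq2 4, and the median was -0.023. The keratinocyte score was 4.71 to 6.23 in control and 5.62 to 6.05 in Sora-treated tumors, and 8 of 8 markers had positive log2 fold changes, with 0 called by edgeR or DESeq2 (1 at an unadjusted p under 0.05, edgeR). The skeletal muscle score was 4.22 to 4.73 in control and 4.42 to 4.92 in Sora-treated tumors, with 8 of 8 positive and 0 called by either tool (1 at an unadjusted p under 0.05, edgeR). The adipocyte score was 2.64 to 3.23 in control and 3.13 to 3.76 in Sora-treated tumors, with 6 of 6 tested markers positive, a median of 0.70, and 0 called by edgeR (4 at an unadjusted p under 0.05, and 2 by DESeq2). These 3 scores overlapped between the groups. Their part in the levels of the kinase genes was not tested.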
